A study of Mus musculus with 8 samples.

Results

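A set of 37 genes that carry signals onward from the receptors for insulin, leptin and related metabolic hormones was measured in tuberal nucleus somatostatin (TN SST) neurons of the mouse hypothalamus. The genes were chosen by name for their place in these pathways, with earlier results of these data known. All 37 were among the 15194 genes with enough reads to be compared between the sexes. RNA was sequenced from sorted neurons of 4 female and 4 male adult mice, 1 library per mouse. All 8 mice carried 1 copy of the Ssttm2.1(cre)Zjh/J allele, which makes Cre recombinase from the *Sst* locus, and received AAV2-flex-tdTomato in the TN, so that infected cells with Cre turned red. The study kept live, nucleated, red cells after a papain digest, and the comparison asks which transcripts differ between females and males in these cells. The estrous stage of the sequenced females and the age of the mice are not given in the sources used here. The label of the cells is not a lineage test, since any cell that made Cre and took up the virus could be sorted.

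Insulin binds a receptor kinase that phosphorylates the insulin receptor substrates (IRS), which recruit phosphatidylinositol 3-kinase (PI3K) and, through PDK1, activate AKT. AKT restrains FOXO transcription factors and GSK3 and, by inhibiting the TSC complex, frees RHEB to switch on mTOR, whereas AMPK, a kinase that senses low cellular energy, acts against mTOR. Leptin acts through the kinase JAK2 and the transcription factor STAT3, which cytokines of the interleukin 6 family also activate. SOCS3 and the phosphatase PTP1B shut the leptin signal off. In the hypothalamus these pathways report the state of the energy stores to the circuits that control feeding.

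Of the 37 genes, none passed edgeR's quasi-likelihood test at an adjusted p under 0.05, against 24 of all genes tested (0.158%), and 9 had an unadjusted p under 0.05, against 20.5% of all genes. Of these 9, 4 were higher in females (all genes, 9.86%) and 5 lower (all genes, 10.7%). DESeq2's Wald test, the study's own tool, called 4 of the 37 (10.8%), against 6.92% of all genes. *Stat3*, *Socs3* and *Ptpn1* were lower in females, where 3.07% of all genes were called in that direction, and *Prkaa2*, a catalytic subunit of AMPK, was higher, where 3.86% were. The sexes did not overlap for 6 of the 37 (16.2%), against 10.4% of all genes, with 2 members higher in females (all genes, 6.48%) and 4 lower (all genes, 3.94%). The 3 shares lie above those of all genes by margins of a few genes, and nothing is read from them about the pathway as a whole.

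The promoters of the 4 genes called by DESeq2 are shown because these are the members that passed one of the tests. Each window runs from 250 bases before to 50 bases after the RefSeq start of the gene on build GRCm38.p6 and is written 5′ to 3′ along the gene's own strand. Capitals mark a match to the letters TTCNNNGAA, to which STAT proteins are known to bind. *Socs3*, a known STAT3 target, is read from the minus strand at chr11:117969317-117969616, *Stat3* from the minus strand at chr11:100939491-100939790, *Ptpn1* from the plus strand at chr2:167932077-167932376 and *Prkaa2* from the minus strand at chr4:105109849-105110148.
Socs3: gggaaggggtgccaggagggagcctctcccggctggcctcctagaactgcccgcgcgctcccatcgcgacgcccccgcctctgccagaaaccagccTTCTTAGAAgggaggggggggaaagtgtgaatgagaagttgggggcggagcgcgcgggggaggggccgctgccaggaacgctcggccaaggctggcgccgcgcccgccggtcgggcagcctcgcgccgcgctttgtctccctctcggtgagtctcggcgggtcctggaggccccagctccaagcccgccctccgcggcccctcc
Stat3: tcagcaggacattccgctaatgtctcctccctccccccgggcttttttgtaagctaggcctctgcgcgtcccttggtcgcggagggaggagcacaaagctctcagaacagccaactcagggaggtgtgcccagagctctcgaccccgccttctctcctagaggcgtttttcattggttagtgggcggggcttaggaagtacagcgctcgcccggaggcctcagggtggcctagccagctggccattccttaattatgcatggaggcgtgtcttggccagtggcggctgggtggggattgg
Ptpn1: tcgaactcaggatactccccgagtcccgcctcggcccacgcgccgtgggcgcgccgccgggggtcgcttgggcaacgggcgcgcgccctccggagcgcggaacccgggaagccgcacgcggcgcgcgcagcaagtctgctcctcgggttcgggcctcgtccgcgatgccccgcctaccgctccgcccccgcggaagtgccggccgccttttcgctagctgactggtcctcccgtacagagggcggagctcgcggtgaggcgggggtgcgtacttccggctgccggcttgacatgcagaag
Prkaa2: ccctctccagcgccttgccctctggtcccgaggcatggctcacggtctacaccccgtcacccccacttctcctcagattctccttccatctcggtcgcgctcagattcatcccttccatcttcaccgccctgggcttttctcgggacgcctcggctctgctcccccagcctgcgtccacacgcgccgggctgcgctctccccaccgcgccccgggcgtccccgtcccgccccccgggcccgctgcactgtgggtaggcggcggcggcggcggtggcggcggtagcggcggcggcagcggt
The match in *Socs3* began 154 bases before the start, and the other 3 windows held none. RefSeq windows were found for 35 of the 37 genes, *Eif4ebp1* and *Ptpn2* being unmatched. Some of the 35 had more than 1 start, which gave 44 windows. The STAT letters were on either strand of 4 of the 44 (*Socs3*, *Akt2*, *Mtor* and *Pdpk1*), against 8.3% of 32851 windows of the same length. The letters TGACGTCA, bound by CREB, were in none of the 44 and in 1.79% of all windows. Their shorter form TGACG, which lies within the full letters, was in 17 of the 44, from 16 genes, and in 20.8% of all windows, and the FOXO letters GTAAACA were in 2 of the 44 (*Akt1* and *Stk11*) and in 3.65% of all windows. Both strands were searched for each, and a match describes the letters only.

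Estimated counts per mouse ran from 7827940 to 17648100. A single gene, *Lars2*, took 9.28% to 34.3% of them, and TMM scaling factors ran from 0.841 to 1.16. Values in CPM below are counts scaled to equal library sizes and serve to compare one gene between mice, whereas TPM, which is also corrected for transcript length, serves to compare genes. A count of 3, the floor used here, corresponded to 0.148 to 0.458 CPM, and the smallest count of a member in a mouse was 53, for *Eif4ebp1*. The defining genes of the sorted cells were present in every library, with *Sst*, *Gad1*, *Gad2* and *Slc32a1* together at 987 to 1568 CPM in females and 883 to 1351 CPM in males. Transcripts of other cells were present too. The summed level of 8 microglia genes was 218 to 1320 CPM in females and 516 to 2592 CPM in males, with all 8 lower on average in females and none passing either test. Female 1 and male 2 stood apart with 1401 and 3295 CPM of 7 infiltrating immune genes, against 25.6 to 337 CPM in the other 6 mice. In bulk RNA of this kind, fewer cells of a type and less RNA per cell cannot be told apart.

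By TPM, the 37 genes spanned from 4.86 ± 0.609 (SD, n = 8) for *Irs1* to 166 ± 33.9 for *Tsc2*. The plot of levels by mouse gives each value behind these means.

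**Figure D1:**
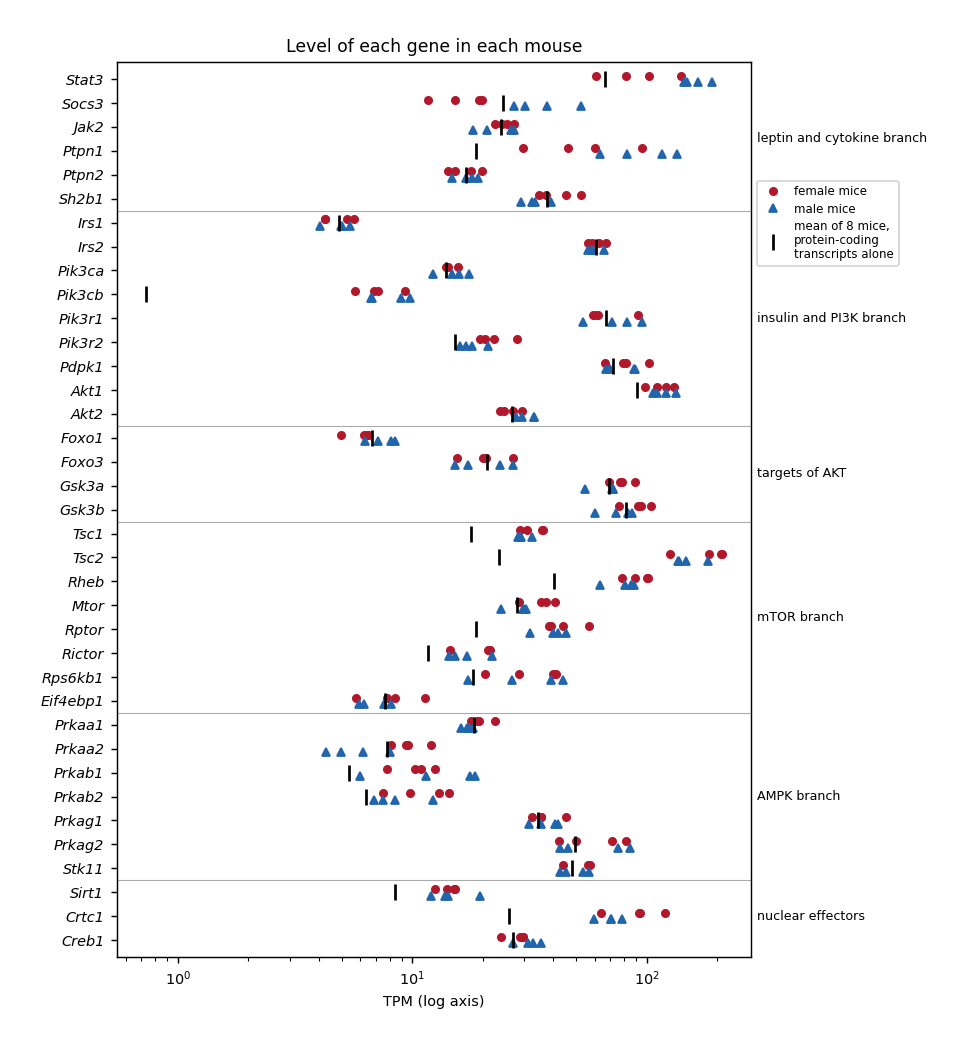
Level of each of the 37 genes in TPM (log axis), 1 point per mouse, with 4 females as circles and 4 males as triangles, and a bar for the mean of the 8 mice counted from protein-coding transcripts alone. *Tsc2* was highest with all transcripts (166) and stands at 23.3 when coding transcripts alone are counted, while *Irs1* sits at 4.86 on both scales.

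Part of this order in TPM came from transcripts that do not encode the full protein. Over the 37 genes together, protein-coding transcripts held 68.0% of the TPM (64.5% to 73.3% in a mouse), retained introns 15.3%, processed transcripts without an open reading frame 14.2% and transcripts annotated for nonsense mediated decay 2.59%. The libraries were made from total RNA, which includes unspliced molecules, and their part in these shares was not tested. For 19 genes the coding share of the mean TPM was over 90%, among them *Socs3* at 90.99% and *Prkaa2*, *Jak2*, *Irs1*, *Irs2*, *Foxo1*, *Foxo3*, *Prkaa1* and *Eif4ebp1* at 100%. For 7 it was under 50%, namely *Pik3cb* at 9.56%, *Tsc2* at 14.05%, *Ptpn1* at 23.7%, *Crtc1* at 32.1%, *Rptor* at 44.5%, *Prkab1* at 45.2% and *Rheb* at 46.9%. In 6 genes the annotated transcript with the highest mean TPM was not a coding one. That transcript was the processed transcript Tsc2-211 for *Tsc2* (33.8% ± 4.43 of the gene's TPM over the 8 mice), Ptpn1-207 for *Ptpn1* (45.3% ± 18.3) and Crtc1-205 for *Crtc1* (45.5% ± 14.1). It was the decay transcript Pik3cb-203 for *Pik3cb* (90.3% ± 5.77). For *Stat3* it was the retained intron Stat3-204, whose share ran from 0.885% to 31.02% between mice, and for *Rheb* the retained intron Rheb-202. By mean share in a mouse a coding transcript came first for these last genes, with Stat3-207 at 25.3% against 23.5% for Stat3-204, and Rheb-201 at 47.7% against 46.2% for Rheb-202. Tsc2-211, Ptpn1-207, Crtc1-205, Stat3-204 and Rheb-202 were short, with 324, 436, 302, 319 and 492 distinct stretches of 31 bases, against 5015 for Pik3cb-203. Some coding transcripts were short too, with 475 for Pdpk1-208 and 525 for Rps6kb1-204, the top transcripts of *Pdpk1* and *Rps6kb1*. Since TPM corrects for length, a read weighs more in a short transcript, and these shares are not shares of reads. How much of the order rests on this, with all transcripts or with coding ones alone, was not tested. Counted from coding transcripts alone, *Akt1* was highest at 90.8 ± 6.77 TPM, followed by *Gsk3b* at 81.7 ± 13.0, and *Pik3cb* was lowest at 0.730 ± 0.420.

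**Figure D2:**
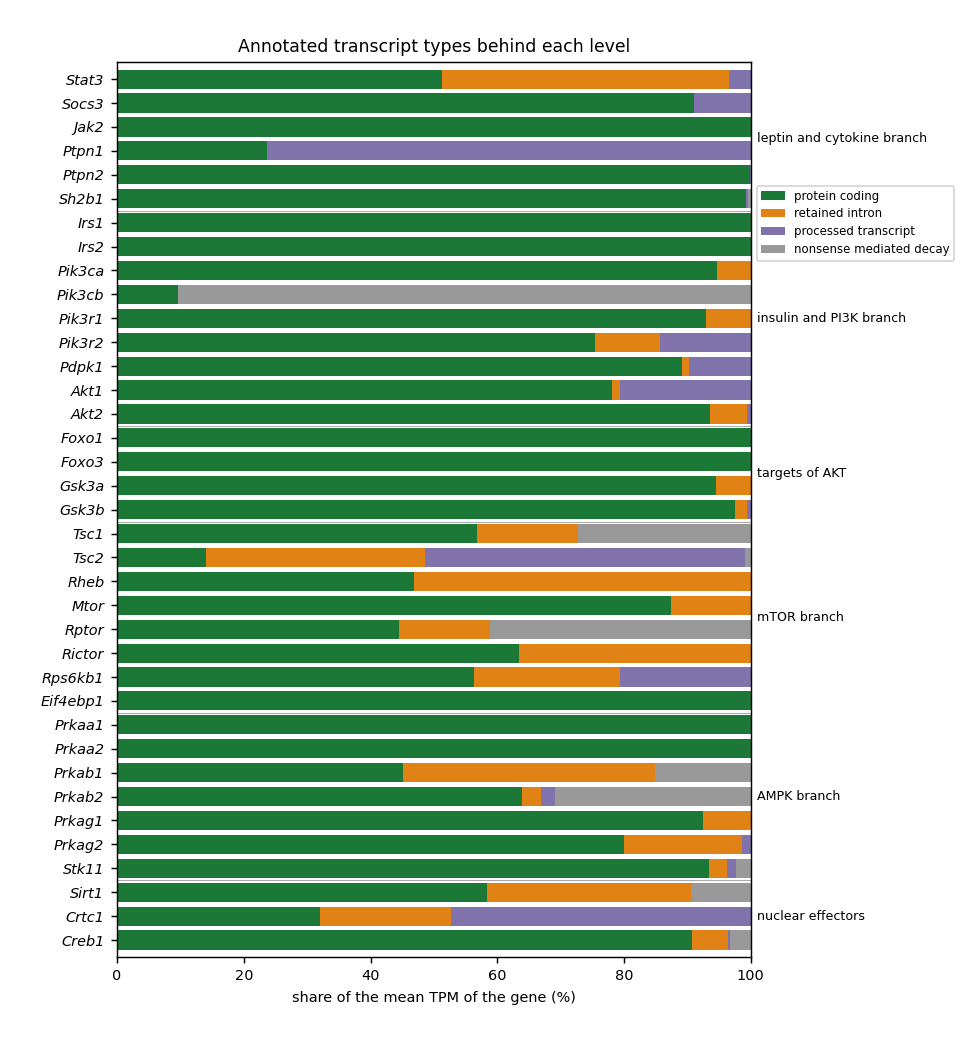
Share of the mean TPM of each gene over 8 mice, in percent, by the annotated type of the transcript. The bars of *Pik3cb* (9.56% protein coding), *Tsc2* (14.05%) and *Ptpn1* (23.7%) are mostly other types, whereas *Prkaa2* and *Irs2* are coding throughout.

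The leptin and cytokine branch, of 6 genes, held 3 of the 4 members called by DESeq2. *Stat3* encodes the transcription factor that leptin and interleukin 6 activate (chr11:100885098-100939540, minus strand). In females 1 to 4 it stood at 149, 102, 85.8 and 107 CPM, while males 1 to 4 had 169, 198, 152 and 180 CPM. The lowest male lay just above the highest female, female 1. On the log2 scale the female level was lower by a change of -0.65 (SE 0.159), or 1.57-fold higher in males, and the adjusted p was 0.0964 by quasi-likelihood in edgeR and 0.00332 by DESeq2's Wald test. In TPM it was the highest of the branch at 129 ± 43.8 (SD, n = 8), from 61.0 in female 2 to 190 in male 2, and at 66.1 ± 16.3 from coding transcripts alone. The change fitted on coding transcripts alone was -0.65.

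*Socs3* encodes the feedback inhibitor that binds JAK2 and the leptin receptor (chr11:117966079-117970047, minus strand), and its promoter is printed above with the STAT letters. Females 1 to 4 read 26.8, 19.6, 11.99 and 25.9 CPM, whereas males 1 to 4 read 32.4, 39.1, 51.0 and 71.8 CPM. No female reached the lowest male, male 1. The log2 change was -1.21 (SE 0.302), or 2.31-fold higher in males, with an adjusted p of 0.1005 in edgeR and 0.00237 in DESeq2. It also varied most within a sex, with an SD of log2 CPM of 0.514 against a median of 0.140 for the 37 genes and 0.248 for all genes tested. In TPM it averaged 16.5 ± 3.79 in females and 36.9 ± 11.3 in males (SD, n = 4 each).

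*Ptpn1* encodes PTP1B, the phosphatase that acts on JAK2 and on the insulin receptor (chr2:167932057-167979385, plus strand). Its level was 57.2, 37.9, 41.6 and 44.0 CPM in females and 47.8, 99.8, 65.6 and 79.5 CPM in males, in order of mouse number. The sexes overlapped, since female 1 was above male 1. The log2 change was -0.69 (SE 0.217), or 1.62-fold higher in males, with an adjusted p of 0.146 in edgeR and 0.0278 in DESeq2. From coding transcripts alone the change was -0.57.

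The rest of the branch did not pass either test. *Jak2*, the kinase itself, averaged 58.2 ± 2.82 CPM (females) and 56.7 ± 12.7 CPM (males), with a log2 change of 0.04 (SE 0.149). *Sh2b1*, an adaptor that enhances JAK2, had a change of 0.04 (SE 0.116). *Ptpn2*, which encodes the related phosphatase TCPTP, was the lowest of the branch at 16.9 ± 2.06 TPM, with 17.8, 14.2, 19.7 and 15.2 TPM in females and 17.9, 14.7, 16.9 and 19.1 TPM in males. The ranges overlapped throughout. It had a change of -0.06 (SE 0.129). The receptor *Lepr* was low in these libraries, at 4.996, 9.01, 5.53 and 9.18 CPM in females and 11.4, 7.61, 9.47 and 9.95 CPM in males. Its log2 change was -0.43 (SE 0.2503), with an adjusted p of 0.355 in edgeR and 0.375 in DESeq2.

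**Figure D3:**
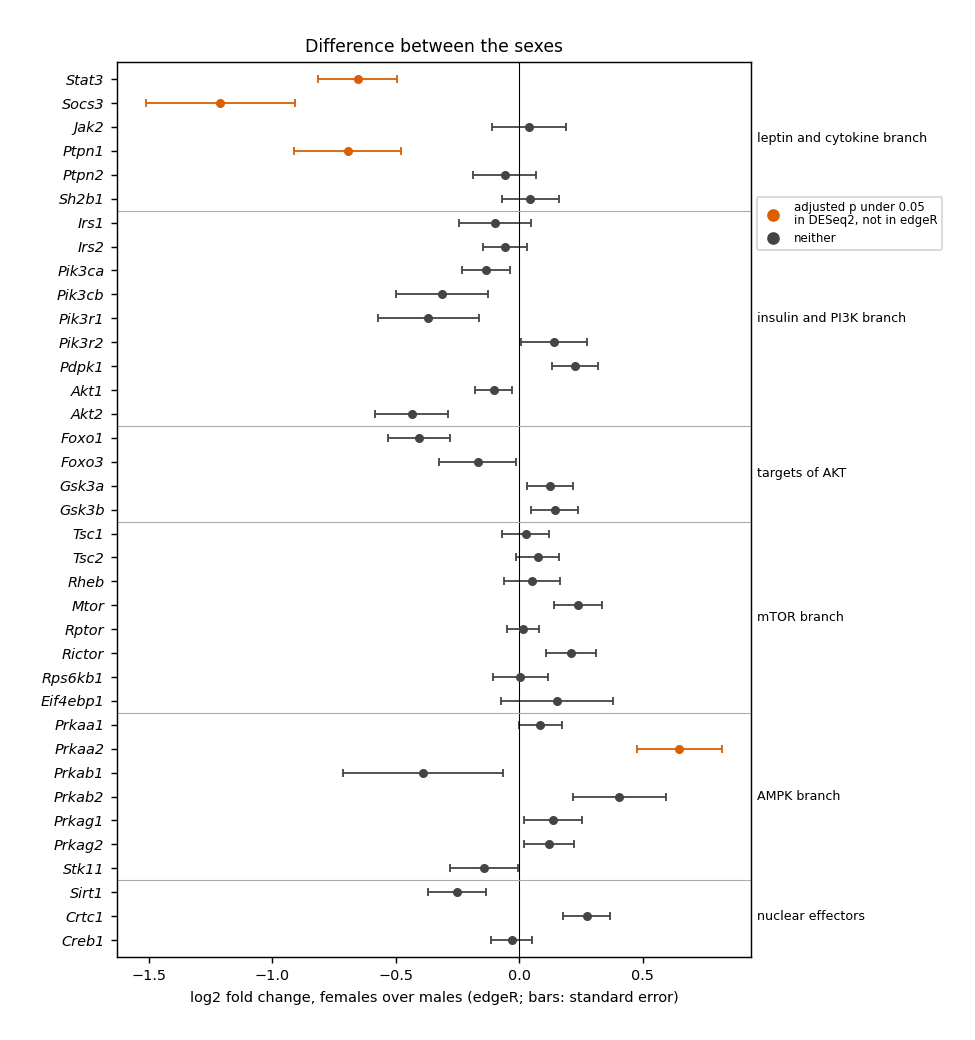
Log2 fold change of females over males for each of the 37 genes from the edgeR fit, with bars of 1 standard error. The 4 genes with an adjusted p under 0.05 in DESeq2 are in orange, with *Socs3* farthest left at -1.21 and *Prkaa2* farthest right at 0.65.

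Among the 9 genes of the insulin and PI3K branch, 7 were lower and 2 higher in females by sign, none passed either adjusted test, and *Akt2* and *Pdpk1* had an unadjusted p under 0.05 in edgeR. *Akt2*, the AKT isoform tied to glucose handling, read 22.0, 19.9, 20.4 and 23.5 CPM in females and 24.8, 33.7, 23.9 and 33.8 CPM in males. The sexes did not overlap, by a margin of less than 1 CPM. Its log2 change was -0.44 (SE 0.147), with an adjusted p of 0.168 in edgeR and 0.103 in DESeq2. Of the 31-base stretches of its main transcript, 59.4% also occur in the pseudogene *Akt2-ps*, to which the deposited values assigned 0.121 CPM on average, so the split of those reads is uncertain. *Akt1* was the highest of the branch in TPM, at 110, 98.2, 130.2 and 120 in females and 111, 106, 121 and 133 in males, with overlapping sexes and a change of -0.10 (SE 0.0749).

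*Pdpk1*, which encodes PDK1, averaged 141 ± 11.96 CPM (females) and 121 ± 11.7 CPM (males), with a change of 0.23 (SE 0.0930) and an adjusted p of 0.222 in edgeR. *Irs1* was the lowest of the 37 genes by TPM, at 4.24, 5.27, 5.64 and 4.25 in females and 5.45, 4.95, 4.04 and 5.02 in males, and *Irs2*, the other substrate, stood at 60.5 ± 4.26. *Irs2* was above *Irs1* in all 8 mice, and the ratio of *Irs1* to *Irs2* was 0.0814 as a geometric mean. Of the stretches of *Irs1*, 30.7% also occur elsewhere, nearly all in *Gm9747*, which was listed at 0. The receptor *Insr* read 69.9, 72.6, 84.3 and 70.7 CPM in females and 77.1, 67.1, 65.5 and 63.0 CPM in males, with overlapping sexes and a change of 0.13 (SE 0.0968). The PI3K subunits *Pik3ca*, *Pik3cb*, *Pik3r1* and *Pik3r2* had changes from -0.37 to 0.14. *Pik3r1*, the main regulatory subunit, had the widest error of these with -0.37 (SE 0.205), from 143 to 230 CPM in females and 154 to 282 CPM in males.

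Of the targets of AKT, *Foxo1* had the smallest p and the lowest level. It encodes the transcription factor that AKT keeps out of the nucleus, and read 32.0, 26.0, 27.2 and 31.04 CPM in females and 35.8, 43.6, 41.6 and 32.9 CPM in males. Each male was above each female, with male 4 nearest. The log2 change was -0.41 (SE 0.124), with an adjusted p of 0.140 in edgeR and 0.0640 in DESeq2. *Foxo3* overlapped between the sexes and had a change of -0.17 (SE 0.156). *Gsk3b*, a kinase that AKT inhibits, was the highest of these at 94.8, 76.4, 104 and 91.9 TPM in females and 86.4, 60.2, 83.1 and 73.8 TPM in males. Its change by counts was 0.14 (SE 0.0954), and that of *Gsk3a* was 0.12 (SE 0.0940). For *Gsk3a*, 26.0% of the stretches occur in another annotated transcript, mainly of *9130221H12Rik*, which is not used here.

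The 8 genes of the mTOR branch all had a positive sign, with a median log2 change of 0.06 and none called by edgeR or DESeq2. The signs of *Tsc1*, *Tsc2*, *Rheb*, *Rptor*, *Rps6kb1* and *Eif4ebp1* turned under some other processing. *Mtor*, the kinase at the core of both complexes, read 131, 137, 159 and 168 CPM in females and 129, 116, 137 and 123 CPM in males. Its highest male, male 3, lay between female 1 and female 2, and its change was 0.24 (SE 0.0962), with an adjusted p of 0.218 in edgeR and 0.175 in DESeq2. *Rictor*, the scaffold of complex 2, had a change of 0.21 (SE 0.102), and *Rptor*, the scaffold of complex 1, one of 0.01 (SE 0.0655) and the smallest spread within a sex of all 37 genes (SD of log2 CPM 0.0552). *Tsc2*, which restrains RHEB, stood at 184, 125, 208 and 209 TPM in females and 183, 137, 147 and 135 TPM in males. *Eif4ebp1*, a repressor of translation that mTOR inactivates, was the lowest at 5.73, 7.77, 8.41 and 11.3 TPM in females and 8.12, 7.59, 6.21 and 5.94 TPM in males. The sexes overlapped for both.

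In the AMPK branch the catalytic subunit *Prkaa2* (chr4:105029874-105109890, minus strand) was the one gene called by DESeq2. It read 43.5, 40.2, 48.5 and 42.2 CPM in females and 37.6, 21.1, 28.4 and 24.1 CPM in males. All females were above all males, with male 1 nearest to them. The log2 change was 0.65 (SE 0.172), or 1.57-fold higher in females, with an adjusted p of 0.112 in edgeR and 0.0152 in DESeq2. In TPM it averaged 9.78 ± 1.67 in females and 5.87 ± 1.66 in males (SD, n = 4 each), the lowest level of the branch with all transcripts counted. From coding transcripts alone, *Prkab1* (5.37) and *Prkab2* (6.37) were below *Prkaa2* (7.83) in mean TPM over the 8 mice. The other catalytic subunit, *Prkaa1*, had a change of 0.09 (SE 0.0855) and was above *Prkaa2* in all 8 mice.

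The regulatory subunits *Prkab1*, *Prkab2*, *Prkag1* and *Prkag2* passed neither test. *Prkab2* averaged 24.7 ± 3.24 CPM (females) and 18.7 ± 5.08 CPM (males), with a change of 0.40 (SE 0.188), and *Prkab1* went the other way by sign with -0.39 (SE 0.323). *Prkag2* was the highest of the branch in TPM, at 49.8, 42.2, 81.4 and 70.9 in females and 46.1, 75.3, 42.9 and 85.3 in males. For *Prkag1*, 39.9% of the stretches are shared with *B130046B21Rik*, which is not used here. *Stk11*, which encodes LKB1, the kinase that activates AMPK, had a change of -0.14 (SE 0.138).

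Of the nuclear effectors, *Crtc1*, a CREB coactivator that AMPK and its relatives hold in the cytoplasm, read 100, 113, 127 and 102 CPM in females and 99.4, 87.9, 87.2 and 91.8 CPM in males. The sexes did not overlap, although female 1 and male 1 differed by less than 1 CPM. Its change was 0.27 (SE 0.0938), with an adjusted p of 0.174 in edgeR and 0.102 in DESeq2. Its coding transcript alone averaged 26.0 ± 5.19 TPM of the gene's 81.0 ± 19.8. *Creb1* had a change of -0.03 (SE 0.0816). *Sirt1*, an energy-sensing deacetylase, was lowest of the 3 at 12.5, 14.03, 15.2 and 15.01 TPM in females and 14.2, 13.7, 12.1 and 19.5 TPM in males, with a change of -0.25 (SE 0.119) and an adjusted p of 0.260 in edgeR.

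The 4 genes called by DESeq2 were set beside the level of microglia transcripts in each mouse. Female 3, which had the lowest sum of microglia genes (218 CPM), was also the lowest of the 8 for *Stat3* and *Socs3* and the highest for *Prkaa2*. Male 2, which had the highest sum (2592 CPM), was the highest for *Stat3* and *Ptpn1* and the lowest for *Prkaa2*. The order was not kept throughout. *Socs3* in male 2 (39.1 CPM) was below males 3 and 4, *Ptpn1* was lowest in female 2, and *Prkaa2* in females read 48.5, 40.2, 42.2 and 43.5 CPM at microglia sums of 218, 433, 649.7 and 1320 CPM. Mice of opposite sex with like sums can be set side by side. Female 2 and male 1, at 433 and 516 CPM of microglia genes, read 102 and 169 CPM for *Stat3*, 19.6 and 32.4 for *Socs3*, 37.9 and 47.8 for *Ptpn1* and 40.2 and 37.6 for *Prkaa2*. Female 1 and male 3, at 1320 and 1418 CPM, read 149 and 152 CPM for *Stat3*, 26.8 and 51.0 for *Socs3*, 57.2 and 65.6 for *Ptpn1* and 43.5 and 28.4 for *Prkaa2*. These are pairs of single mice, picked after their values were seen, and carry no test.

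**Figure D4:**
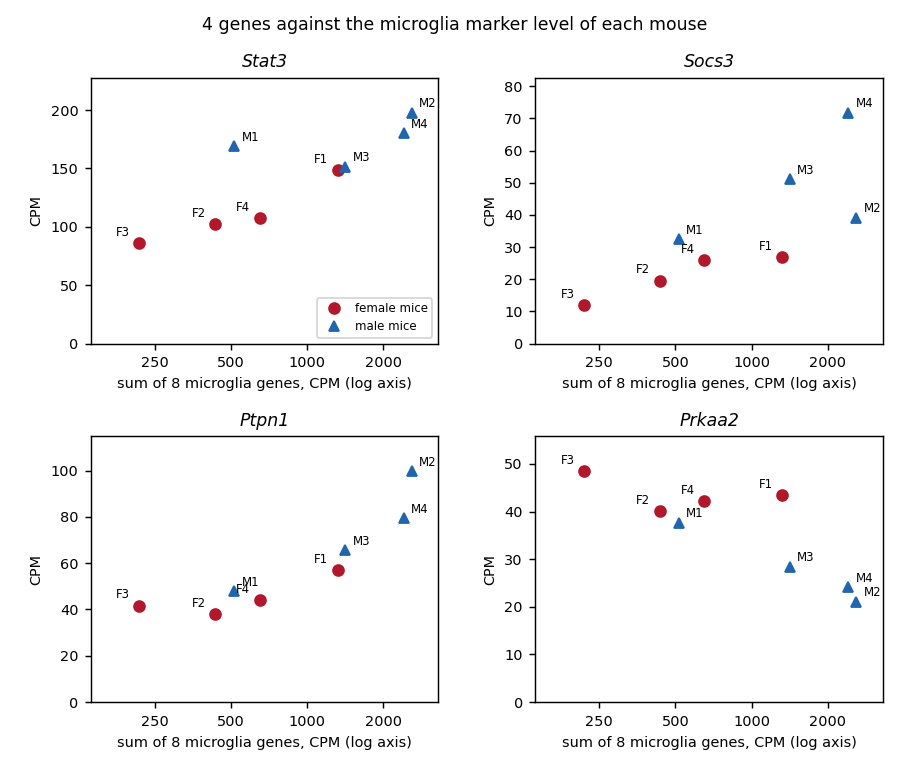
CPM of *Stat3*, *Socs3*, *Ptpn1* and *Prkaa2* in each mouse against the summed CPM of 8 microglia genes in the same mouse (log axis), with females F1 to F4 as circles and males M1 to M4 as triangles. *Stat3* runs from 85.8 in F3 to 198 in M2 and *Prkaa2* from 48.5 in F3 to 21.1 in M2, the mice with the lowest and the highest microglia sums.

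With the mean level of the microglia genes as a term in the edgeR fit, the log2 changes were -0.41 for *Stat3*, -0.67 for *Socs3*, -0.23 for *Ptpn1* and 0.41 for *Prkaa2*, with adjusted p from 0.441 to 0.817. In DESeq2 with the same term none of the 37 genes was called, against 111 of all genes. Without female 1 and male 2 the edgeR changes were -0.76 for *Stat3* (adjusted p = 0.0445), -1.44 for *Socs3* (0.0983), -0.64 for *Ptpn1* (0.125) and 0.54 for *Prkaa2* (0.166), and DESeq2 called *Stat3*, *Socs3* and *Ptpn1* but not *Prkaa2*. The share of all genes that DESeq2 called without these mice is not given here. Some neuronal transcripts differed as well, with 8 neuron genes summing to 2626 to 3032 CPM in females and 2022 to 2614 CPM in males. DESeq2 called 3 of the 8 higher in females (all genes, 3.86%), namely *Snap25*, *Syt1* and *Rbfox3*, and edgeR called none. *Elavl4*, *Stmn2*, *Nefl*, *Tubb3* and *Map2* were called by neither, with log2 changes from 0.0082 to 0.157. Astrocyte and oligodendrocyte genes, 5 of each, were all lower on average in females, at 74.7 to 326 against 245 to 450 CPM and at 427 to 1908 against 766 to 1712 CPM, with none called by either tool. The part of the neuronal, astrocyte and oligodendrocyte transcripts in these differences was not tested.

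Leaving out 1 mouse at a time, DESeq2 called *Stat3* and *Socs3* in all 8 runs. With all 8 mice DESeq2 called 6.92% of all genes, and its shares of all genes in these runs are not given here. *Ptpn1* lost its call without female 2, female 3, male 2, male 3 or male 4, and *Prkaa2* without female 3, male 2 or male 4. In edgeR, *Stat3* passed without female 1 (adjusted p = 0.0304), and *Ptpn1* (0.0485) and *Prkaa2* (0.0441) passed without male 1. Without female 1 edgeR called 415 of all genes, and without male 1 nearly as many, against 24 with all 8 mice. These calls are therefore not read as particular to the 3 genes.

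Ratios of paralogs and partners within a mouse do not depend on the size of its library, and 12 were compared between the sexes in TPM. None of the 12 had a p under 0.05 in a 2-sided exact permutation test. The smallest was 0.0571 (adjusted over the 12, 0.457), where 4 mice against 4 can give no less than 0.0286. It belonged to *Prkaa1*/*Prkaa2*, with ratios of 1.88, 2.32, 1.86 and 2.01 across females 1 to 4, while males 1 to 4 had 2.14, 3.93, 2.60 and 3.58. Male 1 lay within the female range and the other 3 males above it, and the mean log2 ratio differed by -0.57. The next was *Ptpn1*/*Ptpn2*, at 2.08 to 5.36 in females and 3.50 to 9.08 in males (exact permutation p = 0.0857), which from coding transcripts alone averaged 1.07 instead of 4.20.

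The order within a pair was alike in all mice for most pairs. *Ptpn1*, *Pik3ca*, *Pik3r1*, *Akt1*, *Rptor* and *Prkaa1* were above *Ptpn2*, *Pik3cb*, *Pik3r2*, *Akt2*, *Rictor* and *Prkaa2* in 8 of 8 mice, by 1.94-fold for *Pik3ca*/*Pik3cb* to 4.20-fold for *Ptpn1*/*Ptpn2* as geometric means. From coding transcripts alone, *Pik3ca*/*Pik3cb* stood at 19.1 (9.46 to 45.04 in a mouse), and *Ptpn1* was above *Ptpn2* in 4 of the 8 mice. *Irs1*, *Foxo1* and *Tsc1* were below *Irs2*, *Foxo3* and *Tsc2* in 8 of 8. The subunit pairs *Prkab1*/*Prkab2* and *Prkag1*/*Prkag2* and the kinases *Gsk3a*/*Gsk3b* had a ratio over 1 in 5, 1 and 1 of the 8 mice. *Tsc1* against *Tsc2*, at 0.192 over all transcripts, stood at 0.767 from coding transcripts alone.

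**Figure D5:**
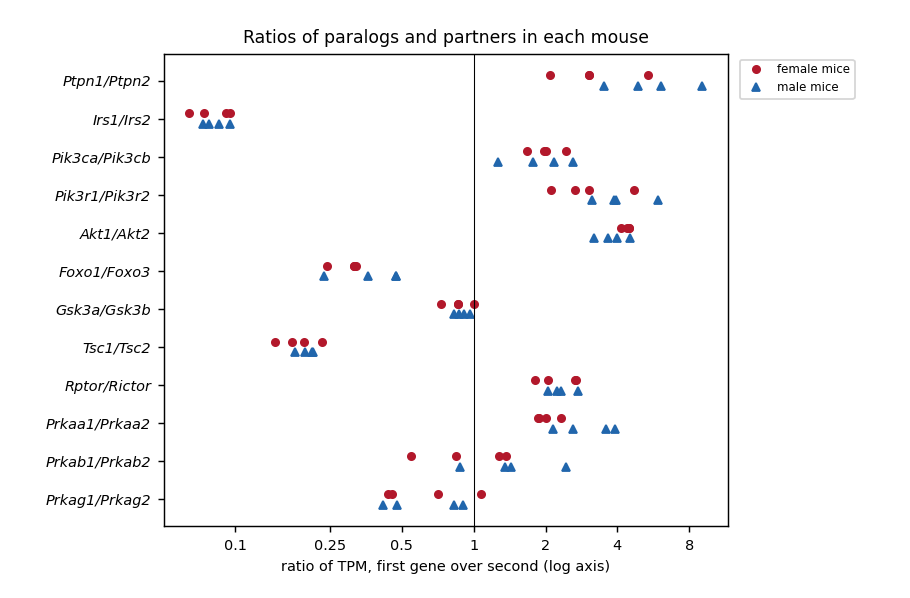
Ratio of the TPM of the first gene to the second for 12 pairs in each mouse (log axis), with 4 females as circles and 4 males as triangles and a line at 1. The sexes overlap in each of the 12 pairs, with *Prkaa1*/*Prkaa2* reaching 3.93 in males and 2.32 in females.

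A wider list of 94 genes of the same pathways, of which 91 could be tested, was read from the same fits. edgeR called none of them (all genes, 0.158%), and 24 had an unadjusted p under 0.05 (all genes, 20.5%). DESeq2 called 8 of the 91 (all genes, 6.92%), with 1 higher (all genes, 3.86%) and 7 lower in females (all genes, 3.07%). Its median log2 change was -0.04, against 0.01 for the 37 genes and -0.0043 for all genes tested. The median size of the change was 0.216 for the wider list, 0.143 for the 37 genes and 0.218 for all genes, and the median spread within a sex was 0.219, 0.140 and 0.248 on the log2 CPM scale.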

How the data were processed

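RNA from sorted TN SST neurons of 4 female and 4 male mice was sequenced as stranded total RNA. The authors assigned single-end reads to mm10 transcripts with kallisto 0.46.2 and deposited estimated counts per transcript, which need not be whole and are not normalized, and TPM. Per the file headers each file held 2 blocks of the same transcripts, whose nature is not given in the sources used here. Both blocks' deposited estimated counts were summed and each block's TPM averaged. Whether kallisto used strand is not given. Gene names came from GENCODE release M21 (116728 of 118489 matched, unmatched ones holding 0.429% to 0.611% of a mouse's counts), and counts were summed to 35968 genes and rounded.

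The sexes were compared with edgeR 4.0.16 in R 4.3.3 (a quasi-likelihood fit on sex alone after TMM scaling and the default filter, with p adjusted by Benjamini-Hochberg and a threshold of 0.05). DESeq2 1.42.0, whose Wald test the study used, was run on the same genes. CPM used TMM-scaled library sizes, and spreads used log2 CPM with a prior count of 2. Ratios used log2 of TPM plus 0.1 and 2-sided exact permutation tests in Python 3.11.15 with scipy 1.17.1. The edgeR fit was tested on simulated data in which genes varied independently, with no shared shift in cell content. DESeq2 was not tested in this way. Shared sequence was counted as 31-base stretches found in transcripts of other genes, and promoters came from RefSeq on GRCm38.p6. Depth was 7827940 to 17648100 counts per mouse, and floors cover counting error only.

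The members and lists were chosen with earlier results of these data known. Values per mouse are given for each member called by either tool, the smallest p, the highest and the lowest level in each branch and the largest spread, and for *Lepr* and *Insr*, while 1 further gene that the rule names is not reported here. Alternatives were DESeq2, other scaling (RLE), filters (none, or 10 counts in 4 mice), each block alone, the replicate number as a block, a microglia term, leaving out mice, and, added after the data were seen, coding transcripts alone and DESeq2 with left-out mice, the block or the microglia term. For ratios they also included 1 TPM as pseudocount and CPM.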

Additional observations from a re-analysis of the deposited data

Results flagged for a closer look

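Of 98 groups of 4 mice (each sex, for each gene and ratio) 5 held a mouse whose gap to the others exceeded Dixon's 95% critical value, and chance marks about 1 in 20. *Pik3ca* in female 4 was at 47.2 CPM, below the other females (54.2 to 55.1). *Pik3r2* in male 4 was at 29.5 CPM, above the other males (22.4 to 23.6). *Rps6kb1* in male 2 was at 28.3 CPM, below the other males (32.7 to 33.1). *Prkab2* in male 4 was at 26.3 CPM, above the other males (15.5 to 16.6) and within the range of the females (21.8 to 27.6). Without male 4 DESeq2 called *Prkab2*. Leaving out the male nearest to the females widens the difference by itself, so nothing is read from this call. The *Foxo1*/*Foxo3* ratio in female 4 was 0.242, below the other females (0.314 to 0.322).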

How the results depend on the processing

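The count of genes that differ by sex was 24 in edgeR, 1052 in DESeq2, 14 with the microglia term, 62 without female 1 and male 2, and 8 to 415 leaving out 1 mouse, highest without female 1 (415) and male 1 (411) and lowest without male 3. Of the 37 genes edgeR called 0, against 4 in DESeq2, 1 without female 1 and male 2, and 0 to 2 leaving out 1 mouse. The DESeq2 count of 4 became 0 with the microglia term and 2 to 8 leaving out 1 mouse, highest without male 1 and lowest without female 3 or male 2. Equal replicate numbers did not pair the mice (correlations of deviations from -0.396 to 0.0719). With the number as a block edgeR called 1 gene in all and 0 of the 37, and DESeq2 called 3 of the 37. The DESeq2 counts over all genes with the block or with mice left out are not given here. Over 18 alternatives, 23 of the 37 genes kept the sign of their log2 change, and 14 turned it at least once, none of which either tool called with all 8 mice. It turned to 0.022 (*Ptpn2*) and -0.043 (*Rptor*) with the first block, to -0.026 (*Tsc1*), -0.020 (*Rheb*) and -0.064 (*Rps6kb1*) with the second block, and to -0.041 (*Tsc1*) and -0.024 (*Rps6kb1*) without female 1 and male 2. With the microglia term it turned to -0.10 (*Sh2b1*), 0.033 (*Irs2*), 0.095 (*Pik3r1*), -0.046 (*Tsc1*), -0.11 (*Rps6kb1*), 0.18 (*Prkab1*), -0.0066 (*Prkag2*) and 0.020 (*Creb1*). With coding transcripts alone it turned to -0.019 (*Tsc2*), -0.099 (*Rheb*) and -0.13 (*Rptor*). Leaving out 1 mouse the change ran from -0.067 to 0.16 (*Jak2*), -0.019 to 0.13 (*Sh2b1*), -0.11 to 0.0012 (*Irs2*), -0.013 to 0.11 (*Tsc1*), -0.017 to 0.12 (*Rheb*), -0.013 to 0.031 (*Rptor*), -0.050 to 0.060 (*Rps6kb1*), -0.032 to 0.28 (*Eif4ebp1*) and -0.068 to 0.0031 (*Creb1*). The sex difference of log2 ratios turned to -0.050 (*Pik3ca*/*Pik3cb*) and 0.14 (*Rptor*/*Rictor*) with the second block, to 0.26 (*Tsc1*/*Tsc2*) with coding transcripts, and to 0.019 (*Irs1*/*Irs2*), -0.11 (*Pik3ca*/*Pik3cb*), 0.029 (*Gsk3a*/*Gsk3b*), 0.017 (*Rptor*/*Rictor*) and -0.25 (*Prkag1*/*Prkag2*) without female 1 and male 2. Leaving out 1 mouse it ran from -0.12 to 0.070 (*Irs1*/*Irs2*), -0.11 to 0.24 (*Pik3ca*/*Pik3cb*), -0.13 to 0.020 (*Gsk3a*/*Gsk3b*), -0.11 to 0.075 (*Rptor*/*Rictor*) and -0.25 to 0.19 (*Prkag1*/*Prkag2*). With the first block alone *Prkaa1*/*Prkaa2* reached an exact permutation p of 0.0286, the smallest 4 against 4 can give. With 1 mouse left out the smallest possible p is 0.0571, and with 3 against 3 it is 0.1, so no count of ratios past the threshold was made there. The cause of these turns was not tested. With 4 mice per sex, small changes could not be told from none, and 7827940 to 17648100 counts per mouse limit the split between transcripts of a gene.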

Other observations

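The 8 genes of the wider pathway list that DESeq2 called were named after their values were seen. *Camkk1*, which encodes a kinase that activates AMPK, was higher in females, at 47.0 ± 7.44 CPM (SD, n = 4) against 34.6 ± 2.05 in males, with a log2 change of 0.44 (SE 0.122). *Il6st*, which encodes the gp130 receptor subunit that signals to STAT3, was lower, at 119, 110, 84.2 and 84.5 CPM in females and 139, 144, 143 and 145 CPM in males, with a change of -0.52 (SE 0.119) and an adjusted p of 0.0897 in edgeR and 0.00326 in DESeq2. *Shc1*, an adaptor of the insulin and growth factor receptors, averaged 7.44 ± 2.25 CPM in females and 16.1 ± 5.41 in males. Female 1 was just above male 1 at 10.32 against 10.26 CPM. *Glp1r*, the receptor for the incretin GLP-1, averaged 33.1 ± 9.02 CPM in females and 58.8 ± 12.9 in males, and the sexes overlapped, with male 4 at 40.2 CPM below females 2 and 4.

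Of the mTOR pathway, *Rps6*, a ribosomal protein that S6 kinase phosphorylates, was at 70.5 ± 12.7 CPM in females and 106 ± 14.1 in males. *Sesn2*, a leucine sensor, was at 10.5 ± 0.591 CPM in females and 16.3 ± 2.84 in males. *Tfeb*, a transcription factor of lysosomal genes that mTOR restrains, was at 3.38 ± 1.67 CPM in females and 8.35 ± 3.68 in males. Female 1 was above male 1, at 5.88 against 4.07 CPM. Within each sex, female 1 was the highest and male 1 the lowest for both *Tfeb* and *Shc1*, as for the sum of microglia genes (1320 and 516 CPM). The fits with the microglia term covered these genes too, but their changes there are not given here. *Tbc1d4*, a target of AKT and AMPK in glucose transport, was at 16.4 ± 1.58 CPM in females and 22.3 ± 1.56 in males. None of the 8 passed edgeR's quasi-likelihood test, with adjusted p from 0.0897 to 0.154.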
